A study of Mus musculus with 3 samples.

Results

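Of the cytokines that dendritic cells (DCs) make, 10 genes are described here across CD11b+ DC populations of the mouse spleen: Il12a, Il12b, Il23a, Il27, Il6, Il1b, Il18, Il15, Il10 and Tgfb1. They were chosen by name, as the genes of the interleukins through which DCs instruct T cells together with transforming growth factor beta 1, and each was read by the 1 probe set whose only annotated gene it is. All 10 were found among the 19938 genes that the arrays measured. The values come from arrays of the type Affymetrix Mouse Gene 1.0 ST, whose probes lie along the whole transcript, and are on a log2 scale, so a difference of 1 is 2-fold.

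The study sorted CD11c(hi) CD11b+ cells from spleen into 3 groups, with 1 array each and RNA of 2 to 3 mice combined per array. The first group was Esam(lo) GFP(hi) cells of Cx3cr1-GFP mice with the alleles RBPJflox/flox and the transgene CD11c-Cre, which deletes the floxed gene in cells that express CD11c. The other 2 groups were Esam(hi) GFP(lo) and Esam(lo) GFP(hi) cells of control mice, which were littermates without Cre and carried the same floxed alleles and the same reporter. RBPJ is the DNA-binding partner of Notch receptors, and Esam is a surface adhesion molecule that divides these cells. No age is given in the sources used here.

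Since no group has a second array, spread between replicates cannot be estimated, no p-value was computed, and every difference below is between arrays. Rbpj did not check the label of the first group: its brighter probe set read 10.04 on that array, against 9.85 on both control arrays, and where its probes lie relative to the deleted part is not known here. That array is therefore called the RBPJ-labelled array. Dtx1, a target gene of Notch signalling, read 8.56 on the RBPJ-labelled, 11.25 on the control Esam(hi) and 9.55 on the control Esam(lo) array, and was thus lowest on the RBPJ-labelled array. Its value there was 1.996-fold below that on the control Esam(lo) array, just short of 2-fold. The sort was visible in the values, since Esam read 6.12 on the RBPJ-labelled, 7.79 on the control Esam(hi) and 6.57 on the control Esam(lo) array, and was above background on the control Esam(hi) array alone. Cx3cr1, the gene that carries the GFP reporter, read 9.58 on the RBPJ-labelled, 8.32 on the control Esam(hi) and 9.58 on the control Esam(lo) array. Itgam, the gene for CD11b, read 10.79 on the RBPJ-labelled, 9.50 on the control Esam(hi) and 10.57 on the control Esam(lo) array. Background was set on each array so that 95 percent of 1194 receptor genes of the olfactory and vomeronasal organs, which most tissues do not use, lay under it; it stood at 6.87 on the RBPJ-labelled, 7.17 on the control Esam(hi) and 6.76 on the control Esam(lo) array. Markers of DC identity were above background in all 3 groups for 8 of 8 genes, among them Itgax, the gene for CD11c.

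DC cytokines help decide what kind of T cell answer follows antigen presentation. The IL-12 family is built from shared chains: the p40 chain, encoded by Il12b, pairs with p35 from Il12a to make IL-12, which drives interferon-gamma responses, or with p19 from Il23a to make IL-23, which sustains IL-17 responses. The p28 chain from Il27 pairs with the chain from Ebi3 to make IL-27. IL-1 beta and IL-18 are made as inactive precursors and cut by inflammasome caspases, IL-15 supports natural killer and memory CD8 T cells, and TGF-beta 1 is stored in a latent form until integrins or proteins such as thrombospondin release it.

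Promoter sequence was read for 6 of the 10 genes (Il12a, Il12b, Il18, Il1b, Il6 and Tgfb1) from RefSeq, build GRCm38.p6, as the 250 bases before the annotated start; Il12a has 2 such windows. The 3 printed here belong to the genes with the widest ranges among those above background: Il12b, which read highest in control Esam(hi) cells, and Tgfb1 and Il1b, which read lowest there. Capitals mark every match, on either strand, to the letters TGGGAA (the core of RBPJ sites), TGANTCA (AP-1 sites) or GAGGAA (PU.1 sites), to GGG and CC with 5 free bases between them (NF-kB sites), or to GAAA repeated after 2 free bases (interferon response elements), each printed 5′ to 3′ on the gene's strand. Il12b lies on the plus strand at chr11:44399813-44400062, Tgfb1 on the plus strand at chr7:25686752-25687001 and Il1b on the minus strand at chr2:129371140-129371389.
Il12b: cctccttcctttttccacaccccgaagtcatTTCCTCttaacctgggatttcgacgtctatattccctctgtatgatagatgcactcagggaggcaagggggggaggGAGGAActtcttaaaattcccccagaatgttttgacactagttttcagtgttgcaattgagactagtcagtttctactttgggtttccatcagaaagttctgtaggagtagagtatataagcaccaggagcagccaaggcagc
Tgfb1: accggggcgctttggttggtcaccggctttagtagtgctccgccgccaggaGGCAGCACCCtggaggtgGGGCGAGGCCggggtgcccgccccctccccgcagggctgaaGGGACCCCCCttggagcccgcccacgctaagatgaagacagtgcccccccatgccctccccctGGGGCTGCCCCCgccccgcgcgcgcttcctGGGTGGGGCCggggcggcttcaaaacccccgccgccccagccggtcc
Il1b: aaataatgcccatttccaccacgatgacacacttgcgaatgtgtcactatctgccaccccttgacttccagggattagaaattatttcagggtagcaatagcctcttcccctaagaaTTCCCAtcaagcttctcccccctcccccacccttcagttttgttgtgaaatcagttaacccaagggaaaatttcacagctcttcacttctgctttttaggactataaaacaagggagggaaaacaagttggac

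The Il12b window holds 2 matches to the PU.1 letters and none to the other 4 patterns. The Tgfb1 window, which is rich in G and C, holds matches to the NF-kB letters from 7 starting positions, some of them overlapping. The Il1b window holds 1 match to the RBPJ core, read on the opposite strand 133 to 128 bases before the start. Over all 7 windows, those of Il12a (1 of its 2), Il1b and Il6 hold the RBPJ core, and those of Il12b, Il18 and Tgfb1 do not; in the Il6 window it overlaps an NF-kB match. The core occurs in 21.6% of all 32851 promoter windows of this length, the NF-kB letters in 45.8%, the AP-1 letters in 6.75%, the interferon response letters in 2.98% and the PU.1 letters in 23.3%. These matches describe letters and show no binding.

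Of the 10 cytokine genes, 5 were above background on every array (Il12b, Il27, Il18, Il1b and Tgfb1) and 5 on none (Il12a, Il23a, Il6, Il15 and Il10). Of all 19938 genes, 45.7% were above background on the RBPJ-labelled, 41.0% on the control Esam(hi) and 47.8% on the control Esam(lo) array. Differences were read for the genes above background only, and a gene was counted as apart where it differed by at least 2-fold and the brighter array was above background. In the bulk RNA of a sorted population, fewer expressing cells and less RNA per cell cannot be told apart. By this rule none of the 5 genes was apart between the RBPJ-labelled and control Esam(lo) arrays, where 0.267% of 9348 genes were (0.0749% higher and 0.193% lower); none between the RBPJ-labelled and control Esam(hi) arrays, where 14.1% of 9312 genes were; and 1, Tgfb1, between the control subsets, where 12.4% of 9196 genes were.

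**Figure D1:**
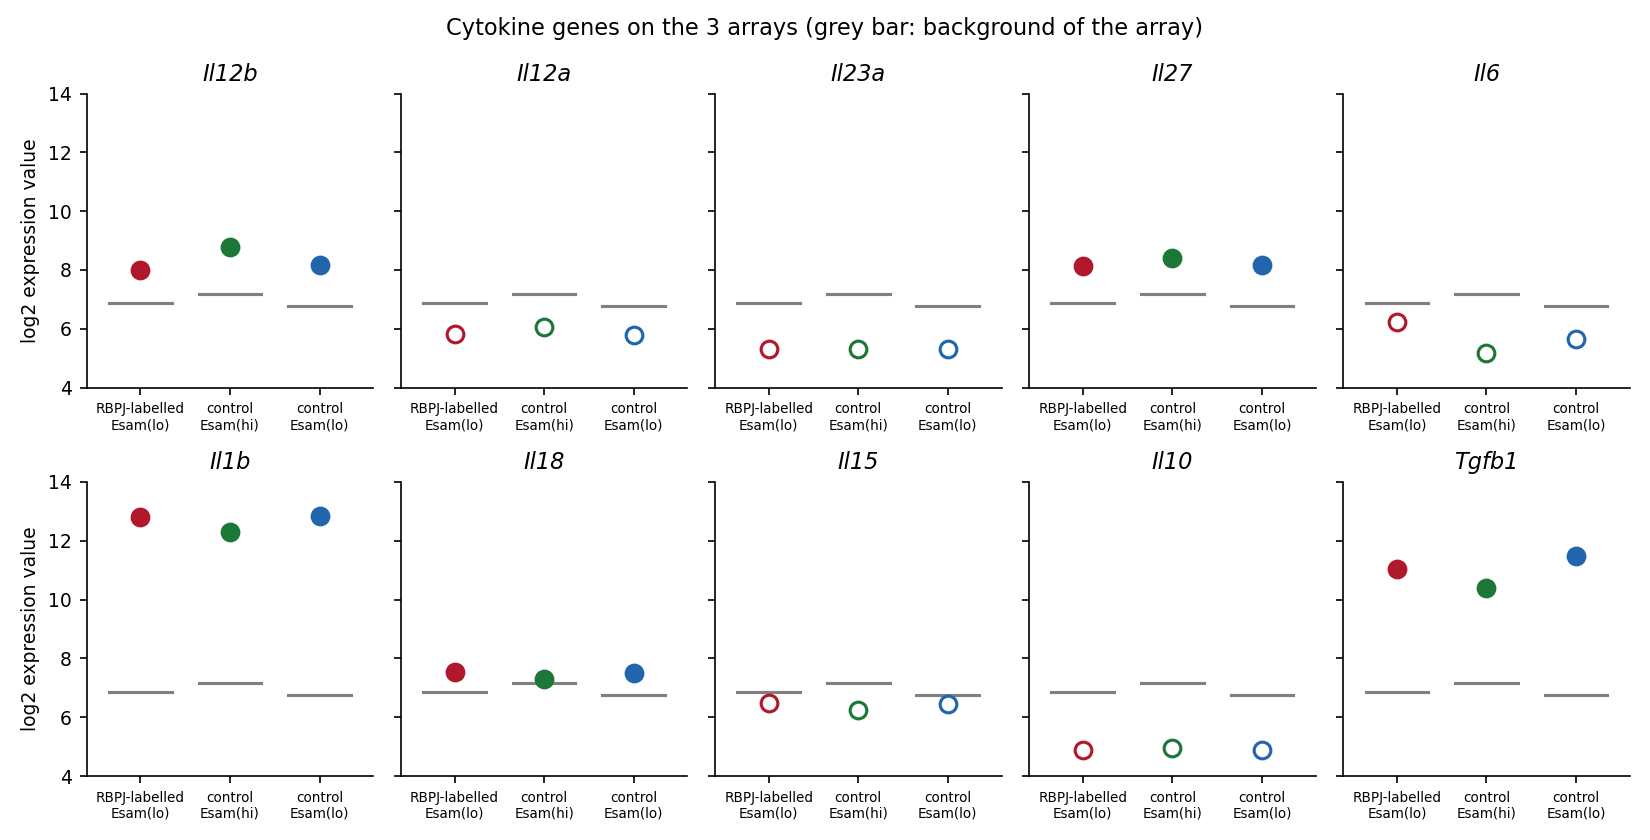
Log2 expression value (y axis) of each of the 10 cytokine genes on the RBPJ-labelled Esam(lo), control Esam(hi) and control Esam(lo) arrays, 1 point per array; filled points are above the background of the array (grey bar) and open points are not. Il12b reads 7.99 on the RBPJ-labelled, 8.79 on the control Esam(hi) and 8.16 on the control Esam(lo) array and stands highest in control Esam(hi) cells, whereas Tgfb1 reads 11.03 on the RBPJ-labelled, 10.39 on the control Esam(hi) and 11.49 on the control Esam(lo) array and stands lowest there.

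The chains of the IL-12 family were read unevenly. Il12b, the chain that IL-12 and IL-23 share, read 7.99 on the RBPJ-labelled array, 8.79 on the control Esam(hi) array and 8.16 on the control Esam(lo) array. It was thus highest in control Esam(hi) cells, and the RBPJ-labelled cells lay slightly below control Esam(lo) cells. The differences were -0.79 between the RBPJ-labelled and control Esam(hi) arrays (1.73-fold lower), -0.17 between the RBPJ-labelled and control Esam(lo) arrays, and 0.63 between the control Esam(hi) and control Esam(lo) arrays (1.54-fold higher). Each of these is short of 2-fold on the deposited values.

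Most genes at the level of Il12b differed the other way. Among the genes within 0.5 of its mean level, the median difference was 0.40 for the RBPJ-labelled minus control Esam(hi) arrays and -0.42 for the control Esam(hi) minus control Esam(lo) arrays. With this trend of the difference on level removed, Il12b differed by -1.16 between the RBPJ-labelled and control Esam(hi) arrays, which is 2.23-fold lower and past the rule. Quantile normalization also put it past 2-fold, at -1.08. The difference between the control subsets came to 0.995 with the trend removed (1.99-fold) and 0.89 with quantile normalization, just short of the rule. Il12b kept its order under these scalings and under centring on the median: highest on the control Esam(hi) array, then control Esam(lo), then RBPJ-labelled.

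The partner chains of p40 were not measured above background. Il12a, which encodes p35, read 5.82 on the RBPJ-labelled, 6.07 on the control Esam(hi) and 5.78 on the control Esam(lo) array. Il23a, which encodes p19, was listed at exactly 5.30 on all 3. Equal values are common in this table, in which 57.1% of genes have the same value on at least 2 arrays, so the tie does not show equal expression. For IL-12 and IL-23 the arrays therefore give a reading of the shared chain and not of the chain that tells them apart.

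Il27, which encodes p28, had the same order as Il12b with smaller differences. It read 8.13 on the RBPJ-labelled array, 8.42 on the control Esam(hi) array and 8.18 on the control Esam(lo) array. The RBPJ-labelled minus control Esam(hi) difference was -0.29 on the deposited values and -0.63 with the level trend removed. That of the control Esam(hi) minus control Esam(lo) arrays was 0.24, and 0.57 with the trend removed. Its partner Ebi3 read 8.72 on the RBPJ-labelled array, 8.34 on the control Esam(hi) array and again 8.72 on the control Esam(lo) array. Ebi3 was thus lowest where Il27 was highest on the deposited values, but with the level trend removed its difference between the control subsets was below 0.01 in size.

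Il6, which supports Th17 cells and B cells, was below background in all groups and read 6.24 on the RBPJ-labelled, 5.18 on the control Esam(hi) and 5.65 on the control Esam(lo) array. Its RBPJ-labelled and control Esam(hi) values lie 1.06 apart, and with no filter on dim genes it would count as higher on the RBPJ-labelled array; no fold is given because neither value is above background. Il10, which restrains DCs and T cells, read 4.90 on the RBPJ-labelled, 4.97 on the control Esam(hi) and 4.90 on the control Esam(lo) array and was well below background. Il15, the closest to background of the 5 dim genes, read 6.49 on the RBPJ-labelled, 6.25 on the control Esam(hi) and 6.45 on the control Esam(lo) array.

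The genes of the inflammasome-dependent cytokines read lower in control Esam(hi) cells than in either Esam(lo) population. So did most genes tested, 71.2% of them against the control Esam(lo) and 68.7% against the RBPJ-labelled array. Il1b, the gene of IL-1 beta, read 12.80 on the RBPJ-labelled array, 12.31 on the control Esam(hi) array and 12.84 on the control Esam(lo) array. Both Esam(lo) arrays were within 0.04 of each other, while the RBPJ-labelled minus control Esam(hi) difference was 0.49 and the control Esam(hi) minus control Esam(lo) difference was -0.53. With the level trend removed these shrank to 0.17 and -0.21. Il18 read 7.52 on the RBPJ-labelled array, 7.29 on the control Esam(hi) array, where it was 0.13 above background, and 7.52 on the control Esam(lo) array. Its RBPJ-labelled minus control Esam(hi) difference was 0.23, or 0.18 with the trend removed. Its control Esam(hi) minus control Esam(lo) difference was -0.22, or -0.18 with the trend removed.

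Tgfb1 had the widest range of the 5 genes, 1.10, and was the only one past the 2-fold rule on the deposited values. It read 11.03 on the RBPJ-labelled array, 10.39 on the control Esam(hi) array and 11.49 on the control Esam(lo) array, so the RBPJ-labelled cells lay between the control subsets. Control Esam(hi) cells were 2.14-fold below control Esam(lo) cells (difference -1.10). The difference was -0.70 with the level trend removed and -0.83 with quantile normalization, neither of them 2-fold. The RBPJ-labelled array was 0.46 below the control Esam(lo) array, a difference that was -0.46 under all 4 scalings (as deposited, centred, quantile-normalized and with the trend removed), and 0.64 above the control Esam(hi) array, or 0.23 with the trend removed.

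**Figure D2:**
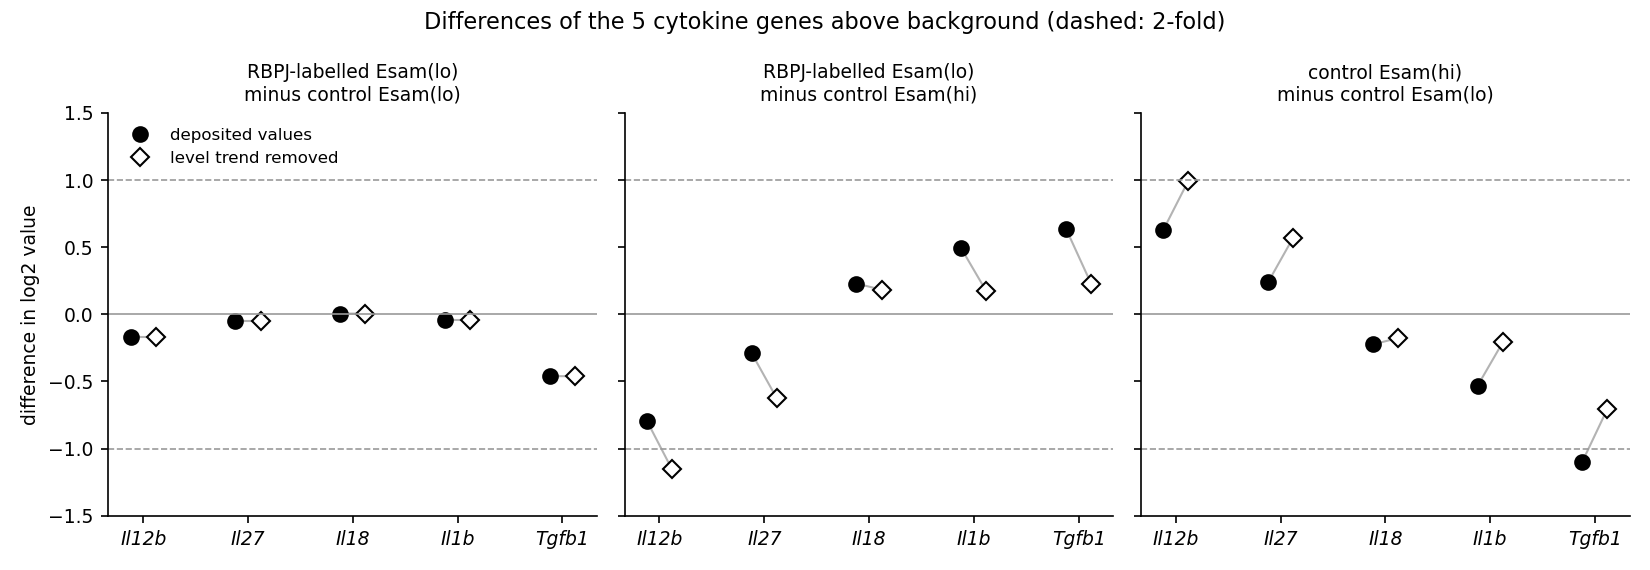
Difference in log2 value (y axis) for the 5 cytokine genes above background in each of the 3 comparisons, on the deposited values (filled circles) and with the level trend removed (open diamonds); dashed lines mark 2-fold. Il12b and Tgfb1 lie on opposite sides of 0 in the 2 comparisons that involve the control Esam(hi) array, and removing the trend takes Il12b past 2-fold (-1.16) against control Esam(hi) cells and Tgfb1 inside it (-0.70) between the control subsets.

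Across the 5 genes, 2 (Il12b and Il27) were higher and 3 (Il18, Il1b and Tgfb1) lower on the control Esam(hi) than on the control Esam(lo) array, with a median difference of -0.22 against -0.32 over all 9196 genes tested. For the RBPJ-labelled minus control Esam(hi) arrays the same 2 genes were lower and the other 3 higher, with a median of 0.23 against 0.31 over 9312 genes. These comparisons share the control Esam(hi) array, so they are not separate evidence. For the RBPJ-labelled minus control Esam(lo) arrays the median was -0.05 against 0 over 9348 genes, and Tgfb1 was farthest from 0. Of the 15 differences, 14 had the same sign under all 4 scalings; the exception was Il18 between the RBPJ-labelled and control Esam(lo) arrays, which was 0.01 as deposited and -0.03 with quantile normalization.

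The level trend that runs through these comparisons is a property of the whole table. The control Esam(hi) array reads low against both others for most genes at middle and high levels, and the median difference of all tested genes between the RBPJ-labelled and control Esam(hi) arrays was 0.31 as deposited, 0.41 with each array centred on its median, 0.10 with quantile normalization and 0.05 with the trend removed. Lower genes made up 8.38% of those called in that comparison as deposited, 4.36% centred, 22.7% with quantile normalization and 28.2% with the trend removed. Between the control subsets the median was -0.32 as deposited, -0.40 centred, -0.11 with quantile normalization and -0.05 with the trend removed, and lower genes made up 93.4%, 96.9%, 81.3% and 73.0% of the genes called.

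**Figure D3:**
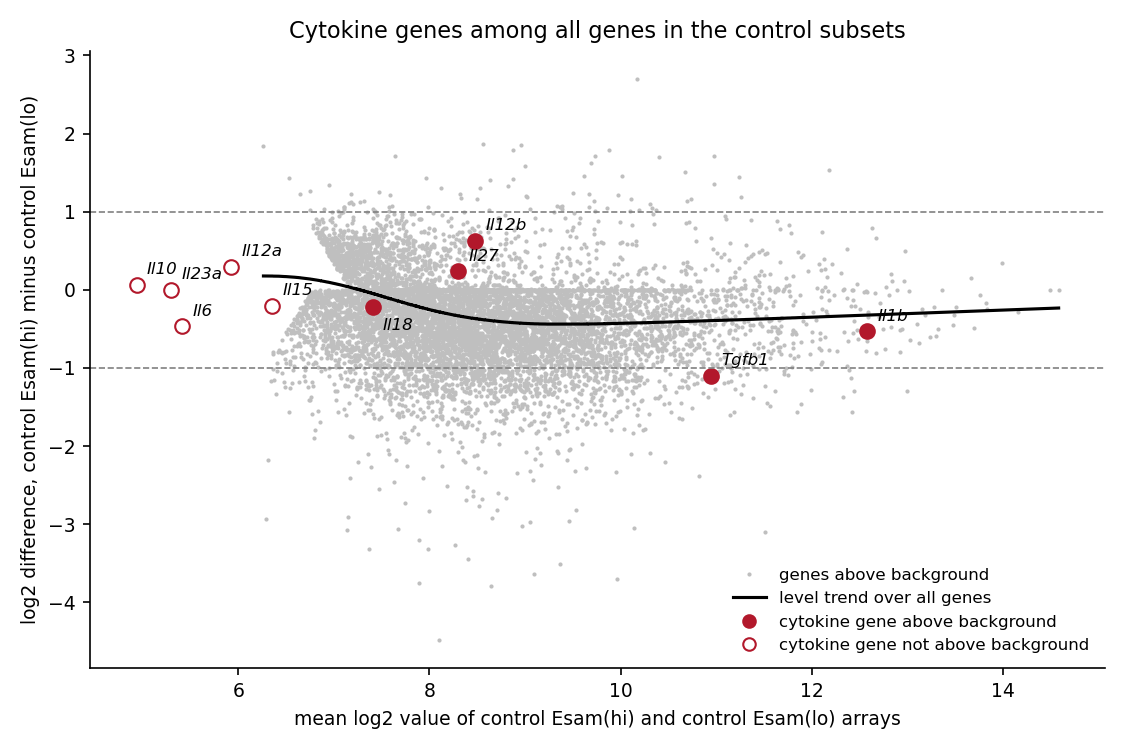
Log2 difference of the control Esam(hi) minus control Esam(lo) arrays (y axis) against the mean log2 value of these arrays (x axis) for each gene above background (grey), with the level trend over all genes (black line) and the 10 cytokine genes (red, open where not above background); dashed lines mark 2-fold. Il12b (0.63) and Il27 (0.24) lie above the trend line and Tgfb1 (-1.10) below it, while Il1b (-0.53) and Il18 (-0.22) lie close to it.

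Genes that mark monocytes and neutrophils, cells known to make much IL-1 beta, summed lowest on the control Esam(hi) array, where Il1b and Tgfb1 were lowest too. This order was not particular to these cells, since most other marker lists also summed lowest there. The log2 sum of the DC identity markers was 15.79 on the RBPJ-labelled, 15.58 on the control Esam(hi) and 15.78 on the control Esam(lo) array. Markers of T cells and of erythroid cells summed highest on the control Esam(hi) array. Of 9 monocyte markers on the arrays, 9 were above background on the RBPJ-labelled, 5 on the control Esam(hi) and 9 on the control Esam(lo) array, and the log2 of their summed linear values was 14.27 on the RBPJ-labelled, 11.52 on the control Esam(hi) and 14.25 on the control Esam(lo) array. This list includes Cx3cr1, whose reporter was used in the sort, so its lower value on the control Esam(hi) array is not evidence apart from the sort. Of 12 neutrophil markers, 11 were above background on the RBPJ-labelled, 9 on the control Esam(hi) and 12 on the control Esam(lo) array, with log2 sums of 14.34 on the RBPJ-labelled, 13.13 on the control Esam(hi) and 14.24 on the control Esam(lo) array. Between the control subsets 9 of these 12 were lower on the control Esam(hi) array and 3 higher, where 71.2% of all genes tested were lower. With the level trend removed 4 of the 12 were 2-fold lower and 1 was 2-fold higher, against 487 lower and 180 higher of all 9196 genes tested. None of either list was below background on all arrays. Between the RBPJ-labelled and control Esam(lo) arrays, where the Tgfb1 difference was -0.46, the median difference was 0 for the monocyte markers and 0.13 for the neutrophil markers, of which 10 of 12 were positive. Over all genes tested in that comparison 29.3% were positive and 40.1% tied, and no marker of either list was 2-fold apart. CD8+ DCs are the main source of IL-12 in many settings; of their 8 markers, 5 were above background on the RBPJ-labelled, 3 on the control Esam(hi) and 5 on the control Esam(lo) array. Their log2 sums were 11.90 on the RBPJ-labelled, 10.71 on the control Esam(hi) and 11.94 on the control Esam(lo) array, and Xcr1, Cd8a and Itgae were below background on all arrays. Of the other markers, Clec9a read 9.20 on the RBPJ-labelled, 6.15 on the control Esam(hi), below background there, and 9.20 on the control Esam(lo) array. Naaa, the brightest of them on both Esam(lo) arrays, read 11.13 on the RBPJ-labelled, 8.78 on the control Esam(hi) and 11.11 on the control Esam(lo) array. Batf3, a transcription factor of CD8+ DCs, had the order of Il12b and was the brightest of them on the control Esam(hi) array, with 8.69 on the RBPJ-labelled, 9.16 on the control Esam(hi) and 9.03 on the control Esam(lo) array. It was the only 1 of the 5 tested CD8+ DC markers that was higher on the control Esam(hi) than on the control Esam(lo) array, by 0.13, and the other 4 were lower. The part of such cells in the cytokine values was not tested.

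The profile of Tgfb1, the gene with the widest range, was compared with those of 7886 other genes above background on all arrays, after subtracting each gene's mean over the 3 arrays. The nearest were Gpr141, Rnf149 and 6430548M08Rik, whose centred values lay within 0.01, 0.03 and 0.04 of those of Tgfb1 on every array. Gpr141, an orphan G protein-coupled receptor, read 9.19 on the RBPJ-labelled, 8.54 on the control Esam(hi) and 9.63 on the control Esam(lo) array. A profile of 3 values describes these arrays only.

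Partners, receptors and regulators of the cytokines were then read from 7 gene lists, of which no member except Zc3h12c was 2-fold apart between the RBPJ-labelled and control Esam(lo) arrays. Among other ligands of the IL-12 and IL-6 families, 3 of the 6 on the arrays were above background: Ebi3, Clcf1 and Osm. Osm, the gene of oncostatin M, read 9.07 on the RBPJ-labelled, 7.95 on the control Esam(hi) and 8.998 on the control Esam(lo) array, 2.19-fold higher on the RBPJ-labelled than on the control Esam(hi) array. Clcf1, which encodes a cytokine that acts through gp130, read 8.82 on the RBPJ-labelled, 8.96 on the control Esam(hi) and 8.92 on the control Esam(lo) array, and its direction between the control subsets flipped with centring. Of 26 other interleukin and cytokine genes only Il1rn, Il16 and Il13 were above background on any array. Il1rn, the antagonist of the IL-1 receptor, read 9.03 on the RBPJ-labelled, 7.98 on the control Esam(hi) and 9.03 on the control Esam(lo) array and went the same way as Il1b, 2.07-fold lower in control Esam(hi) than in control Esam(lo) cells. Il13, above background only on the control Esam(hi) array, read 6.65 on the RBPJ-labelled, 7.27 on the control Esam(hi) and 6.67 on the control Esam(lo) array, and Il16 was listed at 7.67 on all 3. Neither Osm nor Il1rn was 2-fold apart in any comparison with the level trend removed or with quantile normalization.

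Of the receptors and binding proteins of these cytokines, 14 of 18 were above background on at least 1 array, and Il23r, Il2rb, Il18r1 and Il18rap were on none. Between the control Esam(hi) and control Esam(lo) arrays 3 of 13 were 2-fold lower and none higher, against 11.6% of all genes lower and 0.816% higher. Il6st, which encodes gp130, the signalling chain of the IL-6 and IL-27 receptors, read 11.32 on the RBPJ-labelled, 10.08 on the control Esam(hi) and 11.34 on the control Esam(lo) array. Il6ra, the binding chain for IL-6, read 10.43 on the RBPJ-labelled, 9.38 on the control Esam(hi) and 10.50 on the control Esam(lo) array, and Il10rb, a chain of the IL-10 receptor, read 9.88 on the RBPJ-labelled, 8.71 on the control Esam(hi) and 9.99 on the control Esam(lo) array. All of these were at least 2-fold apart between the control Esam(hi) array and either Esam(lo) array as deposited, and none with the level trend removed or with quantile normalization. Tgfbr1, the type I receptor for TGF-beta, read 8.79 on the RBPJ-labelled, 7.94 on the control Esam(hi) and 8.87 on the control Esam(lo) array, less than 2-fold apart.

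Of 17 genes that mature, activate or release these cytokines, 14 were above background on at least 1 array. On the RBPJ-labelled array 4 of the 14 were 2-fold higher than on the control Esam(hi) array, against 12.9% of all genes, and none lower, against 1.18%. Casp1, the caspase that cuts pro-IL-1 beta and pro-IL-18, read 8.64 on the RBPJ-labelled, 7.27 on the control Esam(hi) and 8.40 on the control Esam(lo) array. It was 2.58-fold higher on the RBPJ-labelled than on the control Esam(hi) array, and 2-fold higher under all 4 scalings. Casp4, the caspase of the non-canonical inflammasome (caspase-11), read 8.63 on the RBPJ-labelled, 7.33 on the control Esam(hi) and 8.66 on the control Esam(lo) array, and was 2-fold lower in control Esam(hi) cells than in either Esam(lo) population under all 4 scalings. The other gene of the 4 besides Thbs1 was Casp8, a caspase of cell death and cytokine cleavage that is named after its values were seen, which read 10.89 on the RBPJ-labelled, 9.85 on the control Esam(hi) and 10.83 on the control Esam(lo) array. Pycard, the adaptor ASC, read 8.47 on the RBPJ-labelled, 7.49 on the control Esam(hi) and 8.47 on the control Esam(lo) array, which is 1.98-fold lower in control Esam(hi) than in control Esam(lo) cells.

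Thbs1, which encodes thrombospondin 1, an activator of latent TGF-beta, differed most among these genes. It read 11.60 on the RBPJ-labelled, 8.12 on the control Esam(hi) and 10.94 on the control Esam(lo) array, 11.1-fold higher on the RBPJ-labelled than on the control Esam(hi) array and 1.58-fold higher than on the control Esam(lo) array. Against the control Esam(lo) array it thus differed in the opposite direction to Tgfb1. Itgb8, Itgb6 and Ltbp1, whose products activate or store latent TGF-beta, were below background on all arrays.

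Among 21 genes that carry the signals of these cytokines, all above background on at least 1 array, 3 of 20 were 2-fold lower on the control Esam(hi) than on the control Esam(lo) array, against 11.6% of all genes, and none higher, against 0.816%. Myd88, the adaptor of the IL-1 and IL-18 receptors and of Toll-like receptors, read 10.59 on the RBPJ-labelled, 9.42 on the control Esam(hi) and 10.94 on the control Esam(lo) array. Irak3, which restrains that pathway, read 8.89 on the RBPJ-labelled, 7.36 on the control Esam(hi) and 8.89 on the control Esam(lo) array, and Smad2, a mediator of TGF-beta signals, read 8.69 on the RBPJ-labelled, 7.56 on the control Esam(hi) and 8.68 on the control Esam(lo) array. Myd88 and Irak3 were 2-fold lower on the control Esam(hi) than on the control Esam(lo) array under all 4 scalings, and Smad2 was not with the trend removed or with quantile normalization. Socs3, the feedback inhibitor of gp130, read 9.13 on the RBPJ-labelled, 8.34 on the control Esam(hi) and 9.27 on the control Esam(lo) array.

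Of 27 transcription regulators of cytokine genes, 3 of 25 were 2-fold lower on the control Esam(hi) than on the control Esam(lo) array, a share near the 11.6% of all genes, and none higher, against 0.816%. With the level trend removed 1 of the 25 was 2-fold lower, Irf8, against 487 of all 9196 genes tested. Irf8, which Il12b induction requires in DCs, read 10.07 on the RBPJ-labelled, 8.58 on the control Esam(hi) and 10.29 on the control Esam(lo) array. It was 3.27-fold lower on the control Esam(hi) than on the control Esam(lo) array and 2-fold apart under all 4 scalings, so Irf8 was lowest where Il12b was highest. Irf7, a driver of interferon genes, read 9.78 on the RBPJ-labelled, 8.65 on the control Esam(hi) and 10.02 on the control Esam(lo) array, and its control Esam(hi) minus control Esam(lo) difference of -1.37 came to -0.93 with the trend removed. Irf5, which promotes inflammatory cytokine genes, read 10.12 on the RBPJ-labelled, 9.20 on the control Esam(hi) and 10.12 on the control Esam(lo) array. Nfil3, a repressor of Il12b in macrophages, read 9.84 on the RBPJ-labelled, 8.82 on the control Esam(hi) and 9.85 on the control Esam(lo) array, 2.04-fold lower on the control Esam(hi) than on the control Esam(lo) array as deposited and less than 2-fold with the trend removed.

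All 12 genes of RNA binding proteins that act on cytokine transcripts were above background. Zc3h12c, a relative of the ribonuclease Regnase-1, read 9.76 on the RBPJ-labelled, 9.09 on the control Esam(hi) and 8.69 on the control Esam(lo) array, 2.10-fold higher on the RBPJ-labelled than on the control Esam(lo) array, where 0.0749% of all genes were higher by the rule. Elavl1, which encodes the transcript-stabilising protein HuR, read 10.10 on the RBPJ-labelled, 9.01 on the control Esam(hi) and 9.96 on the control Esam(lo) array. Khsrp, which promotes decay of cytokine transcripts, read 9.30 on the RBPJ-labelled, 8.29 on the control Esam(hi) and 9.34 on the control Esam(lo) array, and Zfp36l2, of the tristetraprolin family, read 11.96 on the RBPJ-labelled, 11.24 on the control Esam(hi) and 12.23 on the control Esam(lo) array. Of the 12, 3 were 2-fold higher on the RBPJ-labelled than on the control Esam(hi) array, against 12.9% of all genes: Elavl1, Khsrp and Tia1, a translational repressor named after its values were seen. Of these only Tia1 was also 2-fold higher with the trend removed, where 567 of all 9312 genes tested were.

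Between the control Esam(hi) and control Esam(lo) arrays the median difference of all genes tested was -0.32. Those of the larger lists were -0.30 for the receptors, -0.39 for maturation and release, -0.33 for signal transduction, -0.44 for the transcription regulators and -0.66 for the RNA binding proteins. With the level trend removed they were -0.23 for the receptors, -0.11 for maturation and release, 0.10 for signal transduction, -0.04 for the transcription regulators and -0.25 for the RNA binding proteins, against -0.05 for all genes, so the median of the signal transduction genes turned positive.

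**Figure D4:**
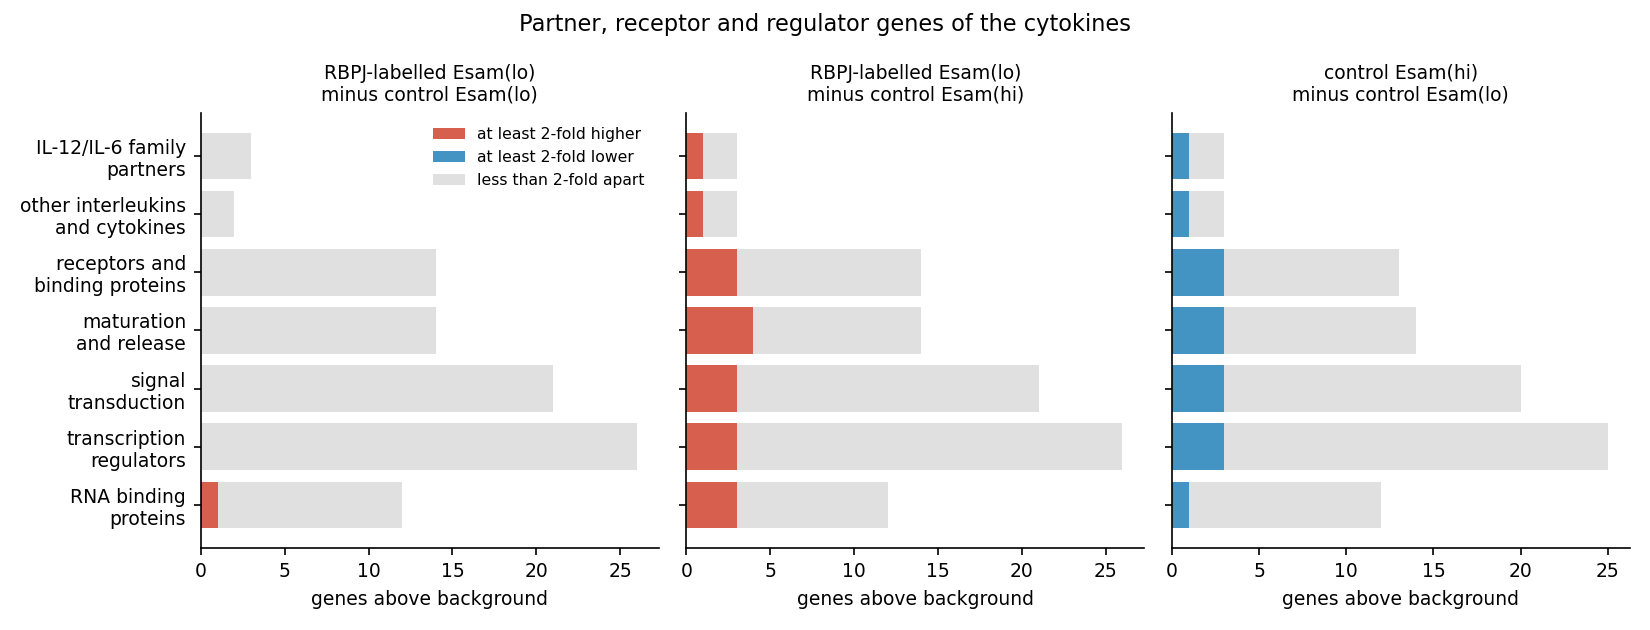
Number of genes above background (x axis) in each of the 7 lists of partner, receptor and regulator genes, split into those at least 2-fold higher (red), at least 2-fold lower (blue) and less than 2-fold apart (grey) in each comparison on the deposited values. A single gene, Zc3h12c, is apart between the RBPJ-labelled and control Esam(lo) arrays; against the control Esam(hi) array the genes apart are all higher on the RBPJ-labelled array, and those apart between the control subsets are all lower on the control Esam(hi) array. Over all genes the calls lean the same way, with 1203 higher and 110 lower on the RBPJ-labelled than on the control Esam(hi) array, and 75 higher and 1066 lower on the control Esam(hi) than on the control Esam(lo) array.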

How the data were processed

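RNA was amplified with the Ambion WT expression kit and biotin-labelled before hybridisation, per the labels' protocols. The authors deposited 1 log2 value per probe set and array, made with RMA in Affymetrix Expression Console per the submitters' processing notes. Versions, and which arrays were normalized together, were not given in the sources used here. The 3 columns do not share a distribution. RMA's median polish can give exact ties, and the cause of those in these values was not tested. The table has 35556 probe sets, of which the platform annotation gives 21789 a single gene, 1621 more than 1 gene and 12146 no gene; only the single-gene sets were used, and the brightest probe set by mean stood for each of 999 genes with several.

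With 1 array per group no test was made. A gene was tested where the brighter array was above background and called where it differed by at least 2-fold; where the dimmer array was below background, a fold is a lower bound. The number of arrays limits the precision. The level trend is a lowess curve (span 0.3, statsmodels 0.14.6) of the difference on the mean. Alternatives were no filter, a filter at the 75th percentile, centring, quantile normalization, trend removal, 1.5-fold and 3-fold thresholds, and the mean over probe sets. Call rules were run on simulated data with an assumed noise, since no replicate gives one. That run therefore does not measure the error of the calls reported here.

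The text names the 10 cytokine genes, the sort markers, and from each pathway list up to 4 members above background with the largest difference, control Esam(hi) or RBPJ-labelled against control Esam(lo). Exceptions are marked where they stand. From the cell type lists the text names Dtx1, Clec9a, Naaa and Batf3, which the same rule picks, but not every gene so picked. Members and lists were chosen with earlier results of these data known.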

Additional observations from a re-analysis of the deposited data

How the results depend on the processing

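No paired analysis was possible because each group has 1 array. Among the cytokine genes, the count 2-fold apart between the RBPJ-labelled and control Esam(hi) arrays was 0 as reported, 1 with no filter (Il6, below background), 1 with quantile normalization and 1 with the level trend removed (Il12b in both), and 2 at 1.5-fold (Il12b and Tgfb1). Between the control Esam(hi) and control Esam(lo) arrays it was 1 as reported, 0 with the trend removed, with quantile normalization or at 3-fold, and 2 at 1.5-fold. It was 0 for the RBPJ-labelled and control Esam(lo) arrays under all 8 alternatives. The genes' median difference was 0.34 centred, 0.10 with the stricter filter and 0.11 with none for the RBPJ-labelled minus control Esam(hi) arrays; -0.25 with the stricter filter and 0 with none for the RBPJ-labelled minus control Esam(lo) arrays; and -0.34 centred and -0.10 with no filter between the control subsets. The stricter filter leaves 2 or 4 of the genes. Of 115 recomputed differences of single cytokine genes, 106 kept sign and side of the threshold, 5 passed it, 3 fell short of it, 1 changed sign without having been called, and 0 called ones changed sign. Only centring, quantile normalization and trend removal could change a difference or its sign. The filters and thresholds reuse the deposited difference, and so does the mean over probe sets, since each gene has 1 probe set. Some genes crossed the threshold only because the threshold itself was moved. The tally therefore does not measure robustness. Over all genes, 790 were apart with the trend removed, 3542 at 1.5-fold and 277 at 3-fold between the RBPJ-labelled and control Esam(hi) arrays; 16 with the stricter filter, 85 at 1.5-fold and 5 at 3-fold between the RBPJ-labelled and control Esam(lo) arrays; and 667 with the trend removed, 3349 at 1.5-fold and 208 at 3-fold between the control subsets. The cause of the level trend was not tested. The 5 genes below background give no fold at this signal.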

Other observations

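A few genes of the same lists are given here that were singled out after their values were seen. Il1r2, the decoy receptor that binds IL-1 beta without signalling, read 11.87 on the RBPJ-labelled, 12.63 on the control Esam(hi) and 12.11 on the control Esam(lo) array. It thus had the order opposite to Il1b in the control subsets, with a control Esam(hi) minus control Esam(lo) difference of 0.52 (0.85 with the level trend removed), and the RBPJ-labelled minus control Esam(hi) difference of -0.76 came to -1.09 with the trend removed. Smad7, a feedback inhibitor of TGF-beta signalling, read 9.03 on the RBPJ-labelled, 9.62 on the control Esam(hi) and 9.73 on the control Esam(lo) array, which is 1.62-fold lower on the RBPJ-labelled than on the control Esam(lo) array. Tgfb1 and Smad7 were therefore both lower on the RBPJ-labelled than on the control Esam(lo) array, by less than 2-fold each.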
